A study of Mus musculus with 11 samples.

Results

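The genes described here are 8 members of the interleukin-1 (IL-1) family: the cytokines Il1a, Il1b, Il18 and Il33, the receptor antagonist Il1rn, the signalling receptor Il1r1, the decoy receptor Il1r2 and the shared receptor subunit Il1rap. They were chosen by name, and all 8 are among the 19170 genes with values in the deposited table, out of 55414 genes listed. The samples are gingival epithelium of langerin-DTR mice, which carry the diphtheria toxin receptor under the control of langerin, so that diphtheria toxin (DT) kills langerin-expressing cells such as Langerhans cells (LCs). PBS was injected into 5 mice and DT into 6 mice around weaning, at postnatal days 17, 24 and 31, and the epithelium was taken from the adult mice at 8 weeks of age. Both groups carry the transgene. Only male mice are named in the study's methods. No mice without the transgene that received DT were analysed here, so an effect of the toxin itself and an effect of losing langerin-expressing cells cannot be told apart. In this design LCs return before that age, so the comparison concerns adult tissue that lacked these cells earlier in life and not tissue that lacks them at collection.

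IL-1α and IL-1β bind IL-1R1, which then recruits IL-1RAP and signals through MyD88, IRAK kinases and TRAF6 to NF-κB and MAP kinases. IL-1Ra, the product of Il1rn, occupies IL-1R1 without recruiting IL-1RAP, and IL-1R2 binds the ligands but has no signalling domain. IL-18 and IL-33 have receptors of their own, and the IL-33 receptor ST2 also uses IL-1RAP. Stratified epithelia keep stores of IL-1α and IL-33, which act as alarm signals when cells are damaged, whereas IL-1β and IL-18 are made as precursors that caspase-1 cleaves within inflammasomes.

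The depth of the libraries was between 17667564 and 22180195 counted reads per mouse after PBS and between 17509328 and 24325513 after DT. The epithelial keratin Krt13 was among the most abundant transcripts (mean 860480 normalized counts after PBS), and Cd207, which encodes langerin, had a mean of 23.9 normalized counts after PBS and 18.4 after DT (log2 fold change -0.19, limma adjusted p = 0.853). Of 20 immediate early genes, 15 were higher after DT at an adjusted p under 0.1 by limma, beside 0.313% of all genes. Mitochondrially encoded mRNAs took 1.63% to 4.14% of the counts in the PBS group and 1.34% to 2.24% in the DT group, and the part of this in the results below was not tested. In earlier results of these data, PBS 3 and PBS 5 lay away from the rest of their group, and values without them are given where they change a call or a size. The mice are the replicates. In bulk epithelium, fewer cells of a type and less RNA per cell cannot be told apart.

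In GRCm38, the genes lie on 5 chromosomes. Il1a (ENSMUSG00000027399, chr2:129299610-129309972, minus strand) and Il1b (ENSMUSG00000027398, chr2:129364570-129371139, minus strand) are neighbours separated by 54.6 kb. Il1rn (ENSMUSG00000026981, chr2:24336853-24351494, plus strand) lies 104948 kb away on the same chromosome, next to the genes of the IL-36 cytokines. Il1r2 (chr1:40074079-40125231) and Il1r1 (chr1:40225080-40317257) follow each other on the plus strand with 99.8 kb between them. Il18 is at chr9:50554827-50581840, Il33 at chr19:29925114-29960718 and Il1rap at chr16:26581704-26730117, all on the plus strand.

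Promoter sequences are shown for Il1a, Il1b, Il1rn and Il33, whose levels rose and fell together over the mice in every pair (described further on). Il18, which passed with Il1a alone by Pearson r, is not shown. For genes with several annotated starts, 1 start is shown. Each is the 250 bases before an annotated start, from RefSeq on GRCm38.p6, written 5′ to 3′ on the strand of the gene. The capitals mark matches, on either strand, to the AP-1 letters TGANTCA, the C/EBP letters TTGCNNAA, the TATA box letters TATAAA or the NF-κB consensus, which were the 4 motifs searched.
Il1a (chr2:129309973-129310222, minus strand): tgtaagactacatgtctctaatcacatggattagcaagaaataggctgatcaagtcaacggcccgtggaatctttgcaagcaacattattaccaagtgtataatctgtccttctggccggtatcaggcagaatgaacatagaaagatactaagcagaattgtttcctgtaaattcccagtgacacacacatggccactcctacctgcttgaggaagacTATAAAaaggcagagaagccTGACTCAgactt
Il1b (chr2:129371140-129371389, minus strand): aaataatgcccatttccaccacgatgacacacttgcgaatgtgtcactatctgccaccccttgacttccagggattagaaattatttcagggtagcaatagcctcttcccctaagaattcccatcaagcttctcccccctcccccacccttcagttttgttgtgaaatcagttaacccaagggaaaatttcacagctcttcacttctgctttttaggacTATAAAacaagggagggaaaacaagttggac
Il1rn, start 1 (chr2:24336610-24336859, plus strand): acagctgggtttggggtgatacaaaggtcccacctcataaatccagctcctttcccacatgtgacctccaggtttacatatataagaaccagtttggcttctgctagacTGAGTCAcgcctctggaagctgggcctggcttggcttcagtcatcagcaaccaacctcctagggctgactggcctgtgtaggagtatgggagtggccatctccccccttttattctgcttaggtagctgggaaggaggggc
Il33, start 2 (chr19:29945540-29945789, plus strand): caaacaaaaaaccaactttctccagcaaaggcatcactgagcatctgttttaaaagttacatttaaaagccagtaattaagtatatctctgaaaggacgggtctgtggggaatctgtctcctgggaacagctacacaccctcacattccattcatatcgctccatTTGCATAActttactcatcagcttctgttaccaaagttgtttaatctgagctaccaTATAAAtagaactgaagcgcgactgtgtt

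The Il1a window held a TATA box 32 bases and an AP-1 match 12 bases before the start. The Il1b window held a TATA box 31 bases before the start and none of the other 3 motifs. Il1rn had an AP-1 match 141 bases before its first start and no TATA box there, and Il33 had a TATA box 29 bases and a C/EBP match 85 bases before its second start. Over 32851 mouse starts with windows of the same length, 6.75% held the AP-1 letters, 7.25% the NF-κB consensus, 9.56% the C/EBP letters and 12.4% the TATA box letters. Among the 12 annotated starts of the 8 genes, the only NF-κB consensus match was 232 bases before the second start of Il1r1. The only AP-1 matches among them were those of Il1a and of the first Il1rn start. These matches are descriptions of letters, and an absent match says only that the letters are not in that window.

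The family differed widely in abundance. Levels between genes are compared here as normalized counts per kb of exon, counting every annotated exon base of a gene once, which understates genes with many long annotated exons such as Il1rap (11.36 kb) against short ones such as Il18 (1.031 kb). The study's reporting summary names a stranded mRNA kit, while its methods process the reads by the QuantSeq guide. Division by length would not apply if reads came only from transcript ends. Without it, Il1rn had the highest mean (2431 normalized counts), then Il33 (1460) and Il18 (853). They were followed by Il1r1 (760.5), Il1rap (476), Il1a (255), Il1r2 (86.6) and Il1b (23.6). The closeness of Il1a to Il1r1 and of Il1r2 to Il1rap given below therefore rests on the division. Per kb of exon, Il18 was the most abundant, with 827 ± 115 normalized counts per kb (SD, n = 11 mice), followed by Il33 with 506 ± 62.4 and Il1rn with 439 ± 90.7. Il1a (129 ± 25.2) and Il1r1 (119.5 ± 20.9) lay together at an intermediate level. Il1r2 (45.4 ± 7.84) and Il1rap (41.9 ± 4.81) were lower, and Il1b was the least abundant at 12.4 ± 5.33. Each neighbour in this order was compared within mice with a two-sided exact permutation test over 2048 sign patterns, adjusted over the 7 comparisons. Lengths were taken as fixed, so these p values cover only the spread between mice. Il18 exceeded Il33 by 1.63-fold, Il1rn exceeded Il1a by 3.39-fold, Il1r1 exceeded Il1r2 by 2.61-fold and Il1rap exceeded Il1b by 3.51-fold, each in 11 of 11 mice (exact p = 0.000977, the smallest these patterns allow, adjusted p = 0.00171). Il33 was 1.17-fold above Il1rn in 9 of 11 mice (exact p = 0.00684, adjusted p = 0.00957). The difference between Il1a and Il1r1 (1.08-fold, exact p = 0.443) and that between Il1r2 and Il1rap (1.08-fold, exact p = 0.231) did not exceed the spread between mice, and the order of Il1a and Il1r1 turned around without PBS 3 and PBS 5.

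**Figure D1:**
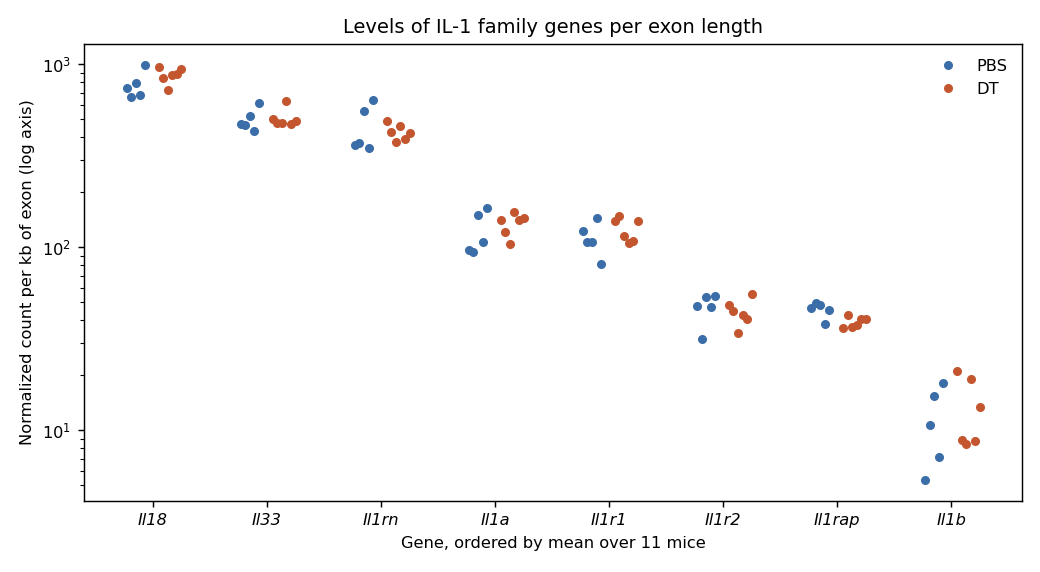
Each point is a mouse, the vertical axis is the normalized count per kb of exon on a log scale, and genes are ordered by their mean over 11 mice, with PBS in blue and DT in red. Il18 sits highest and Il1b lowest, and Il1a overlaps Il1r1 as Il1r2 overlaps Il1rap.

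In the comparison of DT with PBS, which asks whether early loss of LCs left a lasting difference in the adult epithelium, none of the 8 genes passed an adjusted p under 0.1 by limma on log2(normalized count + 1). Of all 19170 genes tested, 0.558% were past this threshold. For each of the 8 genes the ranges of the PBS- and DT-treated mice overlapped, while 1.65% of all genes had groups that did not overlap. The median log2 fold change of the 8 genes was 0.09, beside -0.01 over all genes. At an unadjusted p under 0.05 there was 1 gene, Il1rap, and 11.5% of all genes were past that level. The added 1 shrinks fold changes of low genes such as Il1b.

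The agonist cytokines come first. Il1a encodes IL-1α, which is active without cleavage and is stored in keratinocytes. It had, in normalized counts, 191, 187, 298, 211 and 324 across PBS mice 1 to 5 against 280, 238, 207, 309, 279 and 284 across DT mice 1 to 6. Among the PBS-treated mice, PBS 3 and PBS 5 were as high as the highest DT-treated mice, and the other 3 lay at or near the level of DT 3, the lowest of the DT group. Its log2 fold change was 0.16 (95% confidence interval -0.15 to 0.47, limma adjusted p = 0.725).

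Il1b encodes IL-1β, a cytokine made in large amounts by activated myeloid cells. Its counts were low. It had, in normalized counts, 10.2, 20.4, 29.2, 13.7 and 34.6 across PBS mice 1 to 5 against 40.1, 16.9, 16.1, 36.5, 16.7 and 25.4 across DT mice 1 to 6. High and low mice occurred in both groups, with PBS 5, DT 1 and DT 4 the highest. The log2 fold change was 0.25 with a wide interval, from -0.45 to 0.95 (limma adjusted p = 0.827). A change of up to 1.93-fold upward or down to 0.732-fold was thus not distinguishable from none, given the spread between these mice and the low counts.

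Il18 encodes IL-18, an inflammasome substrate that epithelia express constitutively. It had, in normalized counts, 760, 686, 819, 699 and 1025 across PBS mice 1 to 5 against 991, 870, 745, 900, 916 and 967 across DT mice 1 to 6. PBS 5 was the highest of all mice, whereas the remaining PBS-treated mice lay below every DT-treated mouse except DT 3. The log2 fold change of Il18 was 0.18 (interval -0.02 to 0.39, limma adjusted p = 0.494).

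Il33 encodes IL-33, a nuclear alarm cytokine of epithelial cells. It had, in normalized counts, 1366, 1352, 1508, 1246 and 1772 across PBS mice 1 to 5 against 1457, 1386, 1379, 1825, 1357 and 1412 across DT mice 1 to 6. Apart from PBS 5 and DT 4, which were high, the mice of both groups lay in a common narrow range. The log2 fold change was 0.02 (interval -0.17 to 0.21, limma adjusted p = 0.950), and it was -0.04 without DT 4 and -0.03 without PBS 4.

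Il1rn, the antagonist, was the most abundant of the 8 genes by normalized count before division by length, at the 92.7th percentile of all genes with values. It had, in normalized counts, 1995, 2047, 3059, 1921 and 3540 across PBS mice 1 to 5 against 2705, 2353, 2075, 2546, 2168 and 2337 across DT mice 1 to 6. PBS 3 and PBS 5 were above every DT-treated mouse and the other 3 PBS-treated mice were below every one, so that the DT group lay inside the range of the PBS group. The coefficient of variation was 29.5% after PBS and 9.87% after DT. The log2 fold change was -0.05 (interval -0.34 to 0.25, limma adjusted p = 0.934), and it turned to 0.04 without PBS 3 and to 0.09 without PBS 5.

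Of the receptor genes, Il1r1 had, in normalized counts, 783, 681, 676, 922 and 513 across PBS mice 1 to 5 against 880, 937, 732, 668, 690 and 883 across DT mice 1 to 6. PBS 5, the highest mouse for Il1a, Il1rn and Il18, was the lowest for Il1r1. The log2 fold change of Il1r1 was 0.17 (interval -0.10 to 0.44, limma adjusted p = 0.643).

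Il1r2, the decoy receptor, had, in normalized counts, 90.5, 60.3, 102.6, 90.2 and 102.8 across PBS mice 1 to 5 against 91.7, 85.3, 64.5, 81.6, 77.5 and 105.9 across DT mice 1 to 6. Both groups spanned nearly the same range. Its log2 fold change was -0.07 (interval -0.40 to 0.26, limma adjusted p = 0.903).

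Il1rap, the accessory subunit for the receptors of IL-1, IL-33 and the IL-36 cytokines, had 528, 563, 547, 433 and 513 normalized counts across PBS mice 1 to 5. Across DT mice 1 to 6 it had 409, 487, 415, 427, 459 and 459. Except for PBS 4, every PBS-treated mouse was above every DT-treated mouse. The level was 517 ± 50.7 normalized counts after PBS (SD, n = 5) and 443 ± 30.4 after DT (SD, n = 6), a log2 fold change of -0.22 (standard error 0.07, interval -0.38 to -0.06, limma unadjusted p = 0.00916, adjusted p = 0.262). It passed the threshold only in the fit without PBS 4, where the log2 fold change was -0.28 (limma adjusted p = 0.0854).

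**Figure D2:**
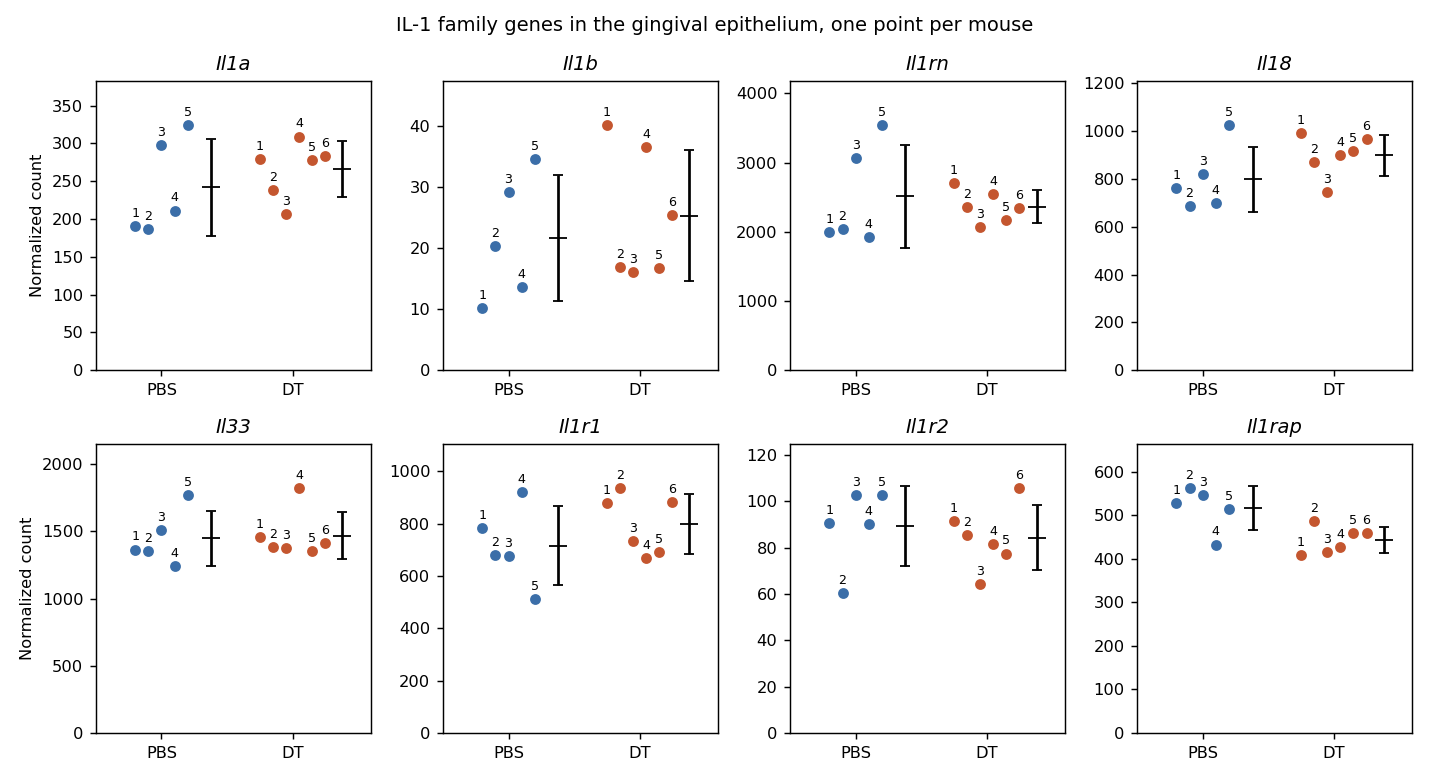
Each point is a mouse, labelled with its number, and the vertical axis of each panel is the normalized count of a gene; the bar at the side of each group is its mean ± SD (n = 5 PBS, n = 6 DT). PBS 3 and PBS 5 sit at the top of the PBS group for Il1a, Il1b, Il1rn, Il18 and Il33, and Il1rap is lower after DT except for the overlap made by PBS 4.

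Without PBS 3 and PBS 5, which held the 2 highest PBS values of Il1a, Il1b, Il1rn, Il18 and Il33, 3 of the 8 genes passed the threshold, all higher after DT, where 10.3% of all genes passed and 4.81% were higher. The log2 fold changes of these 3 were 0.43 for Il1a (limma adjusted p = 0.0400), 0.32 for Il18 (limma adjusted p = 0.0277) and 0.25 for Il1rn (limma adjusted p = 0.0587). Il1b was at 0.69 (limma adjusted p = 0.238) and Il1rap at -0.19 (limma adjusted p = 0.201). Il33 was at 0.15 (limma adjusted p = 0.308), Il1r1 at 0.0035 (limma adjusted p = 0.990) and Il1r2 at 0.0793 (limma adjusted p = 0.836). Since both mice belong to the same group and were set aside for values measured in them, this comparison describes the remaining 9 mice and does not replace that of all 11.

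**Figure D3:**
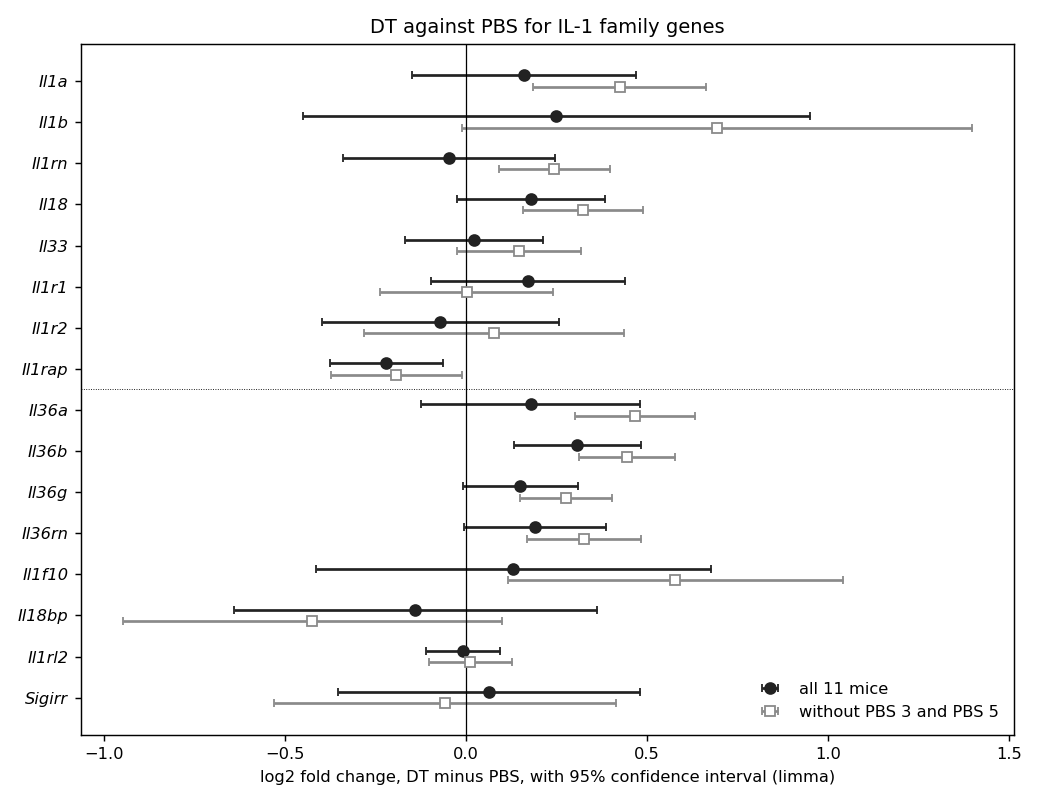
Log2 fold changes, DT minus PBS, with 95% confidence intervals from limma, for the 8 genes above the dotted line and for 8 further ligands, binding proteins and receptors of the family below it; filled circles are all 11 mice and open squares the 9 mice without PBS 3 and PBS 5. With all mice, Il1rap (-0.22) and Il36b (0.31) are the genes whose intervals do not reach 0, and neither passes the adjusted threshold.

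The balance between the antagonist and its competitors was taken within each mouse. Il1rn stood at 9.86, 9.85, 9.33, 8.51 and 9.84 times the summed Il1a and Il1b counts in PBS 1 to PBS 5 and at 8.44, 9.19, 9.28, 7.35, 7.32 and 7.55 times in DT 1 to DT 6. These ratios are of normalized counts and are not divided by length. DT 1, DT 4, DT 5 and DT 6 lay below every PBS-treated mouse, while DT 2 and DT 3 lay within the PBS range. On the log2 scale this ratio was 3.24 ± 0.09 after PBS (SD, n = 5) and 3.03 ± 0.16 after DT (SD, n = 6), a difference of -0.22 (two-sided exact permutation test over 462 splits, p = 0.0303). Adjusted over the 3 ratios computed, the exact permutation p was 0.0909, which misses 0.05. The adjusted exact p was 0.0476 without DT 2 and without DT 3, and 0.179 without PBS 3 and PBS 5 (difference -0.20). Transcript ratios say nothing of the amounts of secreted protein.

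The ratio of decoy to signalling receptor, Il1r2 to Il1r1, lay between 0.0898 and 0.202 in PBS-treated and between 0.0893 and 0.124 in DT-treated mice. It was highest in PBS 5 and PBS 3, and the log2 difference was -0.24 (exact permutation p = 0.294, adjusted 0.318), which turned to 0.0758 without these mice. Il18bp, the soluble inhibitor of IL-18, stood at 0.0163 to 0.0404 times Il18 after PBS and at 0.0166 to 0.0364 times after DT, a log2 difference of -0.32 (exact permutation p = 0.318, adjusted 0.318). PBS 3 and PBS 5 held the 2 lowest PBS ratios, and the difference was -0.75 without them (adjusted exact permutation p = 0.107) and -0.19 without PBS 4. These are ratios of counts as well; per kb of exon, Il1r1 was above Il1r2 in 11 of 11 mice, as given above.

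**Figure D4:**
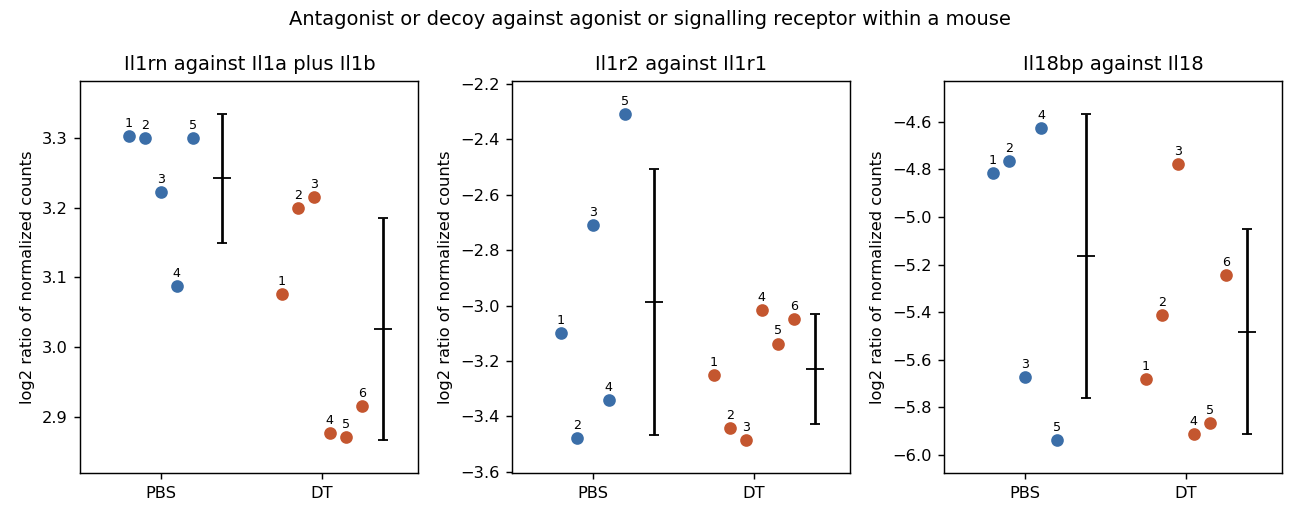
Each point is a mouse, labelled with its number, and the vertical axis is the log2 ratio of normalized counts in that mouse; bars are the mean ± SD of each group. In the left panel (Il1rn to Il1a plus Il1b) DT 1, DT 4, DT 5 and DT 6 lie below every PBS-treated mouse, while DT 2 and DT 3 lie within the PBS range; the groups overlap in the other panels.

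The other genes of the pathway were taken from fixed lists, and none of their genes passed the threshold by limma with all 11 mice. At an unadjusted p under 0.05 there were 1 of the other ligands and binding proteins, 0 of the other receptors, 7 of the signalling genes, 2 of the processing genes and 4 of the target genes, where 11.5% of all genes were past that level. Of the 6 other ligands and binding proteins, 5 had positive log2 fold changes, and the median was 0.17, beside -0.01 over all genes. Il36b, an IL-36 agonist that also acts through IL-1RAP, had, in normalized counts, 960, 1012, 1180, 1050 and 1381 across PBS mice 1 to 5 against 1363, 1309, 1229, 1498, 1400 and 1444 across DT mice 1 to 6. PBS 5 was the PBS-treated mouse within the DT range, and the log2 fold change was 0.31 (limma adjusted p = 0.174). The IL-36 receptor antagonist Il36rn was at 0.19 (limma adjusted p = 0.438) and the agonist Il36g at 0.15 (limma adjusted p = 0.458). Without PBS 3 and PBS 5, 4 of these 6 genes passed, all IL-36 genes and all higher after DT, where 4.81% of all genes were higher. Il36b was then at 0.45 (limma adjusted p = 0.00442) and Il36a at 0.47 (limma adjusted p = 0.00707).

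Of 7 other receptors of the family, 6 had values and 3 of these averaged 10 or more normalized counts. Il1rl2, the IL-36 receptor, was the abundant one, between 1810 and 2059 normalized counts over all 11 mice, with a log2 fold change of -0.01 (limma adjusted p = 0.977). Il1rl1, which encodes the IL-33 receptor ST2, had at most 8.05 normalized counts in any mouse (log2 fold change 0.56, limma adjusted p = 0.732), so Il33 was abundant in an epithelium with few reads of its receptor. Il18rap, with at most 14.9 normalized counts in any mouse, was at -0.85 (limma adjusted p = 0.567), and Il1rapl2, with at most 4.03, was at -0.65 (limma adjusted p = 0.658).

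All 29 genes of IL-1 receptor signalling had values, and their log2 fold changes were positive for 18 and negative for 11 with a median of 0.02. At an unadjusted p under 0.05, 5 were higher (5.31% of all genes) and 2 were lower (6.19%). Tollip, an adaptor that restrains IRAK signalling, was at 0.15 (limma adjusted p = 0.246), the ubiquitin-conjugating enzyme Ube2n at 0.14 (limma adjusted p = 0.261) and the kinase Irak2 at 0.19 (limma adjusted p = 0.275). The DT-treated mice were all above the PBS-treated mice for 2 of the 29, Ube2n and the kinase Irak4 (0.902% of all genes). Irak4, named here after its values were seen, was between 612 and 638 normalized counts after PBS and between 648 and 683 after DT (limma adjusted p = 0.400). Without PBS 3 and PBS 5, 4 of the 29 genes passed, where 10.3% of all genes passed, among them Tollip (0.19, limma adjusted p = 0.0477) and Ube2n (0.19, limma adjusted p = 0.0366).

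Of 36 genes for processing and release, 28 had values, and their median log2 fold change was -0.07. The largest difference was that of Gsdmc2, a gasdermin, which in normalized counts had 11.3, 35.0, 255, 48.3 and 110 across PBS mice 1 to 5 against 8.75 to 44.2 across the DT mice. PBS 3 and PBS 5 were far above the other mice, and the log2 fold change was -1.71 (limma adjusted p = 0.282) with them and -0.67 without them (limma adjusted p = 0.445). Its reads may be shared with the closely related genes Gsdmc, Gsdmc3 and Gsdmc4, so its level is uncertain. The inflammasome sensor Nlrc4 was sparse (-0.79, limma adjusted p = 0.357), and the inflammasome adaptor Pycard was at 0.13 (limma adjusted p = 0.501), which was 0.22 without PBS 3 and PBS 5 (limma adjusted p = 0.0711). Casp1, which cleaves the precursors of IL-1β and IL-18, was at 0.06 (limma adjusted p = 0.770) and at 0.12 without these mice (limma adjusted p = 0.317).

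Of 37 genes that IL-1 is known to induce, 36 had values, with 20 positive and 16 negative log2 fold changes and a median of 0.06. At an unadjusted p under 0.05 by limma, 3 were higher (5.31% of all genes) and 1 was lower (6.19%). Nfkbia, the inhibitor of NF-κB that NF-κB itself induces, was at 0.35 (limma adjusted p = 0.164). The antimicrobial peptide gene Defb14 was at 0.35 (limma adjusted p = 0.258) and Nfkbiz, a nuclear cofactor of NF-κB, at 0.35 (limma adjusted p = 0.290). The neutrophil chemokine genes Cxcl1 (0.43, limma adjusted p = 0.754) and Cxcl2 (0.43, limma adjusted p = 0.770) varied several-fold among mice of each group. While the target genes named so far were all higher after DT, Nfkb2 was among the lower ones. It had 333 to 480 normalized counts across the PBS mice and 298 to 367 across the DT mice. Cxcl1, Cxcl2 and Nfkb2 were named after their values were seen. Without PBS 3 and PBS 5, 6 of the 36 target genes passed, where 10.3% of all genes passed. Nfkbia was then at 0.43 (limma adjusted p = 0.0191), Defb14 at 0.48 (limma adjusted p = 0.0354), Cxcl1 at 1.23 (limma adjusted p = 0.0306) and Cxcl2 at 1.13 (limma adjusted p = 0.111).

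The cytokine genes varied together over the mice, across both groups. Of the 28 pairs among the 8 genes, 7 had a Pearson r whose permutation p, adjusted over the 28, was under 0.05, and all 7 were positive (100000 permutations; log2 scale, n = 11 mice). The highest was Il1a with Il18 (r = 0.86, adjusted permutation p = 0.0258; Spearman rho = 0.78, adjusted permutation p = 0.0290). Il1a with Il1rn reached r = 0.82 (adjusted permutation p = 0.0258; rho = 0.86, adjusted permutation p = 0.0113). For Il1b with Il1rn, r was 0.80 (adjusted permutation p = 0.0266) and rho 0.85 (adjusted permutation p = 0.0113). The remaining pairs past the threshold were Il1a with Il1b (r = 0.79), Il1rn with Il33 (r = 0.77), Il1b with Il33 (r = 0.75) and Il1a with Il33 (r = 0.73), whose adjusted permutation p values were at most 0.0322 for r and at most 0.0397 for rho. High values of Il1a, Il1b, Il33 and the antagonist gene Il1rn thus tended to fall in the same mice. Il18 with Il1rn missed the threshold for r (0.70, adjusted permutation p = 0.0528) but not for rho (0.745, adjusted permutation p = 0.0397). Il18 with Il1b (r = 0.67, adjusted permutation p = 0.0779) and with Il33 (r = 0.60, adjusted permutation p = 0.121) missed it.

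After the 2 mice farthest from the median of the first gene were left out, r was 0.80 for Il1a with Il18, 0.80 for Il1a with Il1rn and 0.81 for Il1b with Il1rn. It was 0.82 for Il1a with Il1b, 0.70 for Il1rn with Il33, 0.92 for Il1b with Il33 and 0.78 for Il1a with Il33. Without PBS 3 and PBS 5 the 7 values lay between 0.64 and 0.90 (n = 9), and 3 of the 28 pairs passed. Within the 6 DT-treated mice alone they lay between 0.56 and 0.91, and the 5 PBS-treated mice are too few for a value. The number of pairs past the threshold was 0 without PBS 4, without PBS 5 or without DT 3. It was 3 without DT 2 and 4 without PBS 1, while r of these 7 pairs stayed at 0.64 or above whichever mouse was left out. Many genes vary together in these 11 libraries. An r with Il1a as high as that of Il18 was held by 0.534% of 13477 genes averaging 10 or more normalized counts, and an r with Il1rn as high as that of Il33 by 3.42%.

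Il1r1 and Il1rap were apart from this. Il1r1 had negative values with Il33 (r = -0.66, adjusted permutation p = 0.0779; rho = -0.48, adjusted permutation p = 0.258), Il1rn (r = -0.56, adjusted permutation p = 0.136) and Il1a (r = -0.37, adjusted permutation p = 0.427). That with Il33 was -0.26 without the 2 farthest mice, and -0.42 without PBS 3 and PBS 5. Without PBS 3 and PBS 5, that with Il1rn was 0.10 and that with Il1a was 0.0093. That with Il1a was -0.60 without its own 2 farthest mice. Il1rap had no r beyond 0.39 in size with any of the other 7 genes. Il1r2 was positive with Il1a (r = 0.61, adjusted permutation p = 0.120), Il18 (r = 0.58, adjusted permutation p = 0.134) and Il1rn (r = 0.57, adjusted permutation p = 0.134). No pair with a receptor gene passed.

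**Figure D5:**
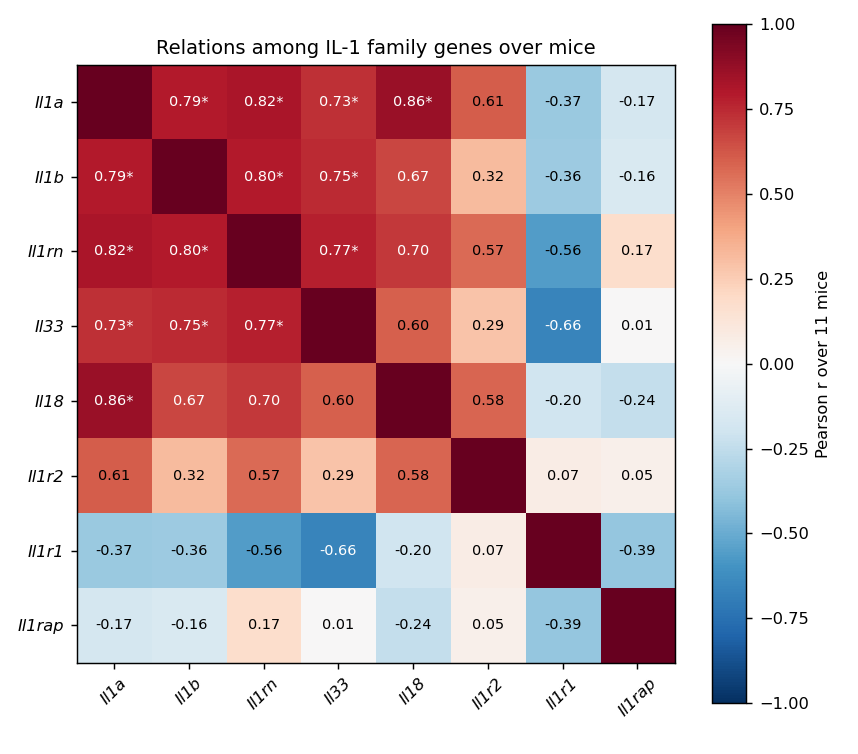
Pearson r of log2(normalized count + 1) over 11 mice for each pair of the 8 genes, from -1 (blue) to 1 (red), with a star where the permutation p adjusted over 28 pairs was under 0.05. The block of Il1a, Il1b, Il1rn and Il33 and the pair of Il1a with Il18 carry the 7 stars, and Il1r1 and Il1rap have values near or below 0 with the cytokines.

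Many IL-1 target genes varied with the cytokine genes over the mice. As a description, after the mean of each group was removed, the median r of Il1a with the 25 target genes averaging 10 or more normalized counts was 0.76, and 18 of them (72.0%) had an r over 0.5, beside 20.3% of all genes. Cxcl1 (r = 0.95), Icam1 (r = 0.93) and Cxcl2 (r = 0.90) were highest with Il1a. In what follows, the share of all genes over 0.5 is in brackets. For Il1rn the median was 0.75 with 18 of 25 over 0.5 (22.2%), and for Il18 0.69 with 16 of 25 (17.3%). It was 0.65 with 17 of 25 for Il1b (16.1%), 0.58 with 16 of 25 for Il1r2 (8.60%) and 0.46 with 12 of 25 for Il33 (19.9%). With Il1r1 (median -0.28) and Il1rap (median 0.08), 1 of 25 was over 0.5, beside 20.3% and 8.68% of all genes. Such values were not particular to target genes. With the marker scores described below, the group-centred r of Il1a was 0.79 for LC, 0.74 for neutrophil and 0.74 for macrophage and monocyte markers. It was 0.19 for the T cell and innate lymphoid cell score and -0.29 for the fibroblast score. The points share their libraries, and these values carry no test.

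Among genes averaging 10 or more normalized counts, the gene most like Il1a over the 11 mice by group-centred r was Il36g (r = 0.98), followed by the epidermal protease gene Klk7 (0.96) and Nckap1l (0.95). The nearest to Il1b were Plek (0.94) and the chemokine gene Cxcl2 (0.94), and the nearest to Il1rn was the ferritin light chain gene Ftl1 (0.98). Galnt3 was nearest to Il18 (0.97) and Tlcd3a to Il33 (0.95). The receptor genes had other neighbours, Pidd1 for Il1r1 (0.95), Opa3 for Il1r2 (0.93) and Rps6ka5 for Il1rap (0.90). Each neighbour was picked as a highest value among 13476 genes over 11 mice. The highest of so many values can be large for unrelated genes, and none of these likenesses was tested.

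Markers of other cell types moved with some of these values. Each gene was centred on its mean log2 value over all 11 mice, and a marker score averages these centred values over a list. The score of 9 LC markers lay between -0.42 and 0.70 in PBS-treated and between -0.60 and 0.12 in DT-treated mice, a difference of -0.31 (exact permutation p = 0.227). That of 10 macrophage and monocyte markers lay between -0.57 and 0.71 in PBS-treated and between -0.59 and 0.34 in DT-treated mice (difference -0.21, exact permutation p = 0.416). Of 40 relations between the 8 genes and 5 scores, 2 had an adjusted permutation p under 0.05 for r and 0 for rho, and 10 had an unadjusted permutation p for rho under 0.05. Il1rn had an r of 0.85 with the LC score (adjusted permutation p = 0.0384; rho = 0.79, adjusted permutation p = 0.122), which was 0.55 without the 2 farthest mice, PBS 3 and PBS 5. It had an r of 0.81 with the macrophage and monocyte score (adjusted permutation p = 0.0448; rho = 0.74, adjusted permutation p = 0.122), which was 0.69 without them. Il1b had an r of 0.75 with the latter (adjusted permutation p = 0.0979). The neutrophil list rested on Ltf and Cxcr2, the only members of 12 averaging 10 or more normalized counts, and its score with Il1r2 had an r of 0.77 (adjusted permutation p = 0.0808). The fibroblast score of Col1a1, Col1a2, Col3a1, Dcn, Fbn1 and Vim was lower after DT (difference -0.33, exact permutation p = 0.00433). The list was mixed. Vim had the largest log2 fold change in the score (-0.62), while Dcn was at 0.09 and Fbn1 at -0.03. Of the listed genes too low for the score, Lum (-0.63) was lower and Pdgfra (0.30) and Pdgfrb (1.00) were higher. Il1rap had an r of 0.51 with this score (adjusted permutation p = 0.321). The T cell and innate lymphoid cell score, of Il7r, Thy1 and Rora, was also lower (difference -0.18, exact permutation p = 0.0303). Their log2 fold changes were -0.47, 0.03 and -0.11. Rora had a mean of 6891 normalized counts after PBS, while Cd3d (4.74), Cd3e (7.42) and Cd4 (5.56) were too low for the score. This score may therefore not follow T cells. The p values of these score differences were not adjusted over the 5 scores. The part of other cell types in the values of Il1rn, Il1b and Il1rap was not tested.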

How the data were processed

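RNA of gingival epithelium from 11 mice was sequenced from poly(A)-selected stranded libraries, according to the study's reporting summary. Its methods process the reads by the QuantSeq guide, and the library type was not settled here. The authors trimmed the reads, aligned them with TopHat 2.1.1, counted them per gene with htseq-count, dropped genes whose counts summed to less than 10 and divided by DESeq2 size factors, and the deposited values are these normalized counts. The study's methods name GRCm38 with Ensembl release 89, whereas the submitters' processing notes name GRCm39, so positions were taken by gene identifier from GENCODE mouse release 21 on GRCm38 (19117 of 19170 genes matched). All 11 columns of values were used, and 36244 listed genes without values were not tested. Depth was recovered from the value of a single read, of which the values were whole multiples (tolerance 0.002).

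DT and PBS were compared with limma 3.58.1 in R 4.3.3 (intensity trend, no covariate) on log2(normalized count + 1), with a threshold of 0.1 after Benjamini-Hochberg adjustment over all 19170 genes. Two-sided exact permutation tests over 462 splits (smallest p 0.00216) were used for ratios and scores, and relations over mice with 100000 permutations. The threshold of these tests was 0.05. Genes named from each pathway list were the 3 with the smallest p; others were named as abundant or well-known members after their values were seen. The 3 genes of highest group-centred r were listed for each member. The members, lists and mice left out were chosen with earlier results of these data known. The procedure was tested on simulated data. Count tests with edgeR and DESeq2 had been planned as alternatives but were not run, although whole reads could be recovered: the deposited table was handled as normalized values.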

Additional observations from a re-analysis of the deposited data

Results flagged for a closer look

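Of 52 groups of values tested for a mouse far from the others, 1 was marked, where chance marks about 1 in 20. It was Il33 after DT, where DT 4 had 1825 normalized counts and the other 5 mice of the group had 1357 to 1457. The gap was 0.787 of the whole range of the group, above Dixon's critical value of 0.625. DT 4 also held the highest value of Il1a (309 normalized counts) and of Il36b (1498 normalized counts) among the DT-treated mice. Without DT 4 the log2 fold change of Il33 was -0.04 in place of 0.02.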

How the results depend on the processing

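Under other pseudocounts (0.5 and 5), a mean of at least 10, TMM scaling and quantile normalization, the 8 fold changes kept their direction and none passed. The 107 genes past the threshold among all genes became 189 with array weights, 1967 without PBS 3 and PBS 5, and 27 (without DT 5) to 259 (without PBS 5) when a mouse was left out. With a replicate block the count was 35 by title numbers and 0 by library numbers (1404 at an unadjusted p under 0.05 by limma). The labels do not say whether these numbers pair the mice. Same-numbered mice had correlations of -0.23 to 0.32 by title and -0.23 to 0.17 by library number. By title 1 and by library number 0 of 5 PBS-treated mice correlated best with their own number. With 5 pairs, these values cannot exclude a pairing. With the block the Il1rn ratio differed by -0.19 (exact p = 0.0625, the smallest that 32 sign patterns allow, so this test could not pass 0.05).

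Without PBS 3 and PBS 5, 3 members passed, with 4 other ligands, 4 signalling, 2 processing and 6 target genes. In that setting the log2 fold changes were 0.43 for Il1a, 0.32 for Il18, 0.245 for Il1rn and 0.0793 for Il1r2, and the log2 ratio of Il1r2 to Il1r1 turned to 0.0758. Array weights turned Il1rn to 0.0454 and Il1r2 to 0.0193, and passed 1 other ligand and 1 target gene. When a mouse was left out, between 0 and 1 of the members, of the other ligands and of the target genes passed. The lowest and highest log2 fold changes were then -0.13 and 0.0895 for Il1rn, -0.0406 and 0.0988 for Il33, -0.20 and 0.0026 for Il1r2, and -0.28 and -0.19 for Il1rap. Il1r2 turned positive without DT 3. The Il1rn ratio lay between -0.25 and -0.19. Between 0 and 8 pairs of members and between 0 and 2 relations to marker scores passed when a mouse was left out, and 3 pairs and 0 relations without PBS 3 and PBS 5. The cause of these shifts was not tested. The order of levels was the same in the other settings run for it but changed without PBS 3 and PBS 5, where Il1r1 lay above Il1a; 5 to 6 of 7 neighbours were past the threshold. Depth limits Il1b and the receptor genes Il1rl1, Il18rap and Il1rapl2.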
